A study of Mus musculus with 4 samples.

Results

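The Notch pathway was described here by 10 genes, chosen by symbol from the 25124 genes of the deposited table: the receptors Notch1, Notch2 and Notch3, the ligands Jag1, Jag2 and Dll1, the DNA-binding effector Rbpj and the target genes Hes1, Hey1 and Nrarp. All 10 were listed, and all 10 passed the filter on low values. They were measured by RNA sequencing of epithelial cells that had been sorted from the lungs of wild-type C57BL/6 mice. All mice had been sensitised with house dust mite (HDM), an allergen that provokes allergic inflammation of the airways. One group, with 2 samples, had also been given an SCD1 inhibitor, and the other, with 2 samples, dimethyl sulfoxide (DMSO), a common vehicle. SCD1, stearoyl-CoA desaturase 1, puts a double bond into saturated fatty acids. The name and dose of the inhibitor, the age of the mice and the number of mice per sample are not stated in the labels, so p values measure the spread between these samples, which may be technical. Mice without HDM were not analysed here.

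Notch is a receptor on the cell surface that is bound by a ligand on a neighbouring cell, cut by a metalloprotease and then by gamma-secretase, and whose freed intracellular part joins RBPJ on DNA to switch on genes of the Hes and Hey families. In the airway, cells that receive the signal take a secretory fate (club or goblet cells), while cells that do not receive it can become multiciliated. The question here was whether transcripts of this pathway differed with the inhibitor in sensitised mice.

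None of the 10 genes passed the test between inhibitor and DMSO, while 1.79% of all 13810 genes tested did (limma, Benjamini-Hochberg adjusted p under 0.05). The lowest adjusted p among them was 0.375, for Nrarp. None had an unadjusted p under 0.05, against 14.1% of all genes. The count was also 0 with edgeR, which called 0.0654% of all genes, and with DESeq2, which called 5.67%. With both of these tools, too, none of the 10 had an unadjusted p under 0.05, against 12.2% of all genes with edgeR and 10.6% with DESeq2, and DESeq2 gave Dll1 and Nrarp no adjusted p. The log2 fold changes (inhibitor minus DMSO) of 8 genes were negative and those of Rbpj and Hes1 positive, with a median of -0.20 over the 10, against 0.0056 over all genes tested. The median of their absolute values was 0.34, against 0.23 over all genes. In 5 of the 10 the inhibitor and DMSO values did not overlap, against 44.9% of all genes tested.

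Values are normalised reads, that is, reads per gene divided by a size factor for each library. Log2 fold changes are on the scale log2(normalised reads + 25.8). Fold differences of single genes between groups or replicates come from the same scale, so they can differ from ratios of the printed reads. The same holds for levels given as times that with DMSO. The libraries held between 24591122 and 27013663 reads assigned to genes. Markers of epithelial cells were high in every library (6 genes with a sum of 98042 to 103994 normalised reads), as were those of ciliated cells (14 genes, 462774 to 470651) and club cells (10 genes, 435578 to 700969.5, with Kcnj16 at 0 throughout). Markers of alveolar type 2 cells were also high (8 genes, 257693 to 453409), and those of alveolar type 1 cells had 28808 to 31953 over 8 genes. Neuroendocrine markers had 1707 to 2025 over 6 genes. The sums were low for T cells (21.4 to 94.4 over 7 listed genes, Cd3g at 0 throughout), B cells (84.8 to 190.3 over 5) and myeloid cells (537 to 1171.5 over 10, S100a8 at 0 throughout). Endothelial, mural and fibroblast markers varied between libraries and are given beside genes that such cells also carry or that shared a low or high library with them. In a mixture of cells, fewer cells of a type and less RNA per cell cannot be told apart.

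Promoter sequences were matched for 8 of the 10 genes in RefSeq (build GRCm38.p6), and Hes1 and Hey1 had no entry. The stretches shown belong to the genes with the lowest and the highest log2 fold change of the 10, a target that feeds back on the pathway and the factor through which it acts on DNA. That of Nrarp is chr2:25180508-25180757 on the plus strand, the 250 bases before its start, with an E-box (CACGTG) and both N-boxes (CACNAG or its reverse complement) in capitals. That of Rbpj is chr5:53590096-53590213 on the plus strand, 118 bases that end before the first annotated exon in the window, with the RBPJ core motif (TGGGAA) in capitals. This Rbpj start lies inside the annotated gene, so for longer transcripts the stretch is intronic.
Nrarp: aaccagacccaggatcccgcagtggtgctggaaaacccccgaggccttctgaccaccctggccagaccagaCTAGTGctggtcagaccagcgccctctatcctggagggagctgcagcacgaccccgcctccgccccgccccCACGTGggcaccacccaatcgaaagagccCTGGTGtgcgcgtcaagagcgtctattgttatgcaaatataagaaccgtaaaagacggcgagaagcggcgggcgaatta
Rbpj: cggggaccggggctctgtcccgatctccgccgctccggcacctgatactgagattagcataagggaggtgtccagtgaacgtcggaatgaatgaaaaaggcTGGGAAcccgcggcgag
Over the 250 bases before each start, searched on both strands, TGGGAA or its reverse complement was found in 1 of the 8 matched genes, Rbpj, and in 21.6% of 32851 promoters. The 8 genes had 10 promoters, and a gene was counted once if any of its promoters held a motif. The shares of all promoters count each promoter by itself, so the units differ. The E-box, a sequence that Hey proteins bind, was found in Nrarp alone of the 8, with its first base 108 bases before the start, and in 6.02% of promoters. The N-box, which Hes proteins bind, was found in 4 of the 8 (Notch1, Notch2, Notch3 and Nrarp) and in 36.7% of promoters. None of these motifs overlapped another in the stretch of Nrarp. Such a match describes the letters and is no measure of binding.

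Levels were compared between genes as normalised reads per kilobase of merged exons, over all 4 libraries. Merging counts every alternative exon, so genes with long or many isoforms come out lower on this scale. Hes1 had the highest level, at 2152 ± 648 (mean ± SD, n = 4), followed by Jag1 with 1711 ± 229, and their ranges overlapped. Jag2 followed with 1012 ± 65.2, below every value of Jag1 and above every value of the rest. Notch2 (502 ± 48.7) and Notch1 (390.0 ± 47.5) were next, with overlapping ranges, and that of Hey1 (342 ± 86.7) overlapped both. Nrarp (133 ± 49.8) overlapped both Notch3 (106 ± 20.1) and Rbpj (74.0 ± 18.8). Dll1 (41.5 ± 12.4) stood lowest and overlapped Rbpj. Of the summed level of the 3 receptors, Notch2 made up 50.3%, Notch1 39.1% and Notch3 10.7%. Of that of the 3 ligands, Jag1 made up 61.9%, Jag2 36.6% and Dll1 1.50%. Among the targets Hes1 made up 81.9%.

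**Figure D1:**
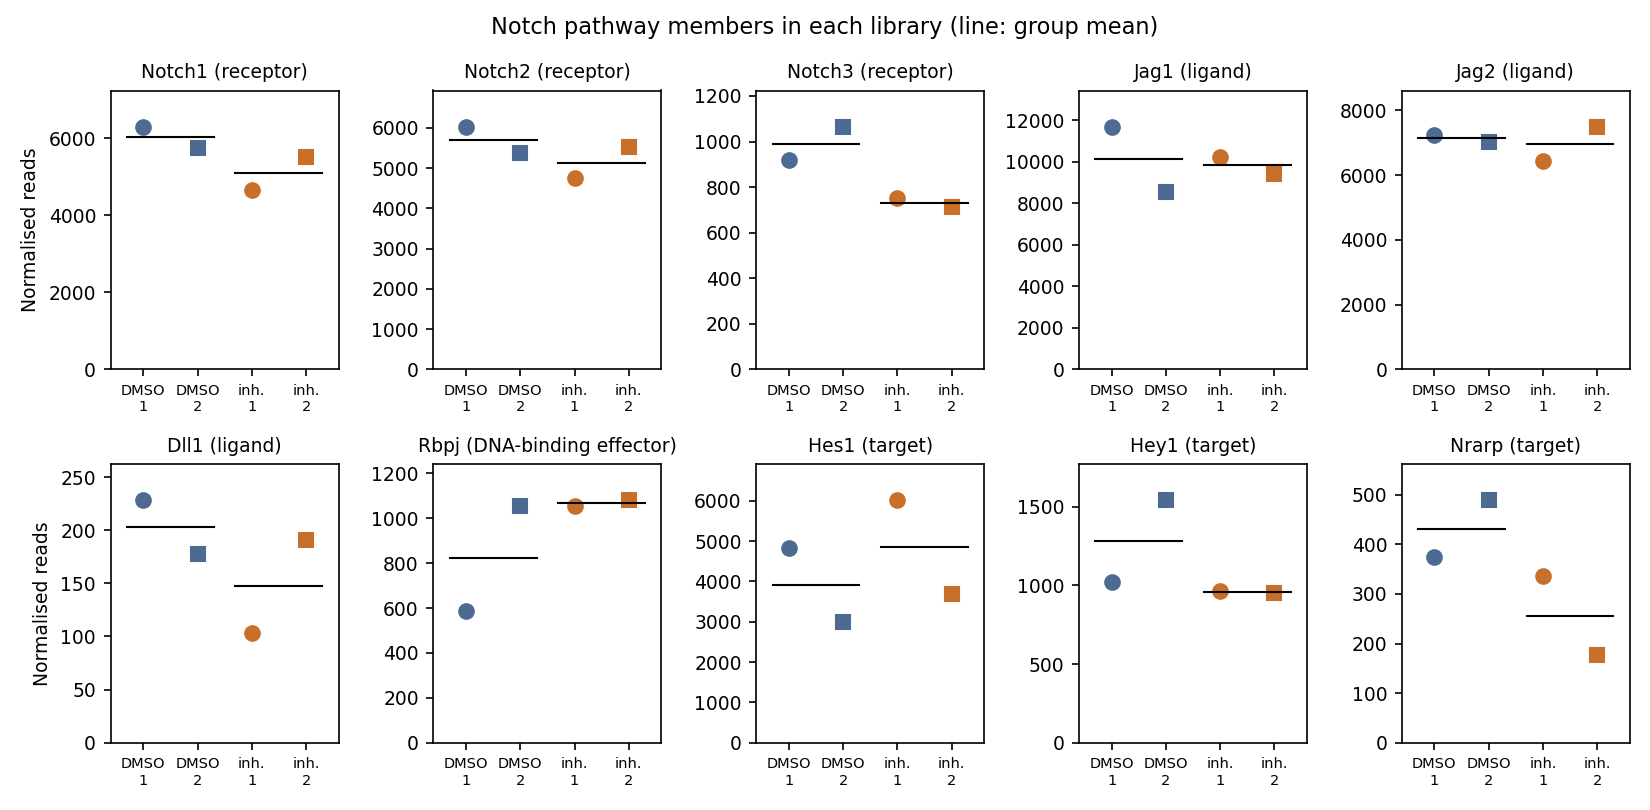
Normalised reads (y axes, linear and from 0, scaled for each gene) of the 10 Notch pathway genes in the 4 libraries, with DMSO in blue, the SCD1 inhibitor (inh.) in orange, circles for replicate 1, squares for replicate 2 and a line at the mean of each group. Notch1, Notch3, Hey1 and Nrarp were lower in both inhibitor libraries than in both DMSO libraries, Rbpj was higher, and the other 5 overlapped.

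The receptors had negative log2 fold changes, and none passed. Notch1 (chromosome 2, 26457903 to 26516663, minus strand), a receptor of many epithelia and of blood vessels, had 6291 and 5748 normalised reads with DMSO and 4665 and 5500.0 with the inhibitor. Both inhibitor values lay below both DMSO values, the nearest by little. The log2 fold change was -0.25 ± 0.12 (SE; 95% interval -0.51 to 0.021; limma adjusted p = 0.403). Notch2 (chromosome 3, 98013527 to 98150361, plus strand), the receptor tied most closely to secretory cells of the airway, had 6023 and 5371 with DMSO and 4748 and 5514 with the inhibitor. Its groups overlapped, and its log2 fold change was -0.15 ± 0.12 (SE; 95% interval -0.42 to 0.12; limma adjusted p = 0.642). The interval of Notch2 allows a level with the inhibitor of 0.747 to 1.08 times that with DMSO. Without inhibitor replicate 1, the library lowest for both genes, the log2 fold change of Notch1 was -0.13 and that of Notch2 -0.045. Notch3 (chromosome 17, 32120820 to 32166852, minus strand), found in basal and early progenitor cells of the airway and in mural cells of vessels, had 918 and 1064 with DMSO and 750.1 and 711 with the inhibitor. Its groups were apart, with means of 991 ± 103 and 731 ± 27.5 (SD, n = 2 each). From the log2 scale it was 1.34-fold lower with the inhibitor. The log2 fold change of Notch3 was -0.42 ± 0.21 (SE; 95% interval -0.87 to 0.019; limma adjusted p = 0.383), and it lay between -0.53 and -0.32 when each library was left out in turn. Notch1 and Notch3 were 2 of the 10 genes in which the groups differed by more than either pair of replicates did, which held for 31.8% of all genes tested. Markers of mural and smooth muscle cells, which carry Notch3 too, summed over 8 genes to 1799 and 4451 normalised reads with DMSO and 3776 and 2924 with the inhibitor. Of those markers 5 of 8 were lowest in DMSO replicate 1 alone, where Notch3 was not lowest. Their sum and 5 of the 8 were highest in DMSO replicate 2, where Notch3 was highest too. The part of these markers' cells in the values of Notch3 was not tested.

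None of the ligands passed, and the log2 fold changes of Jag1 and Jag2 were near 0. Jag1 (chromosome 2, 137081456 to 137116644, minus strand), the most abundant ligand here, had 11684 and 8546 normalised reads with DMSO and 10242 and 9407 with the inhibitor. Both inhibitor values lay between the DMSO values. Its log2 fold change was -0.026 ± 0.14 (SE; 95% interval -0.32 to 0.27; limma adjusted p = 0.955), an interval of 0.799 to 1.21 times the level with DMSO. The sign turned without DMSO replicate 1, at 0.20, and without inhibitor replicate 2, at 0.036. Jag2 (chromosome 12, 112907819 to 112929776, minus strand) is known to signal from basal to secretory cells of the airway. It had 7243 and 7028 with DMSO and 6425 and 7487 with the inhibitor. The inhibitor values lay on both sides of the DMSO values, and the log2 fold change was -0.041 ± 0.12 (SE; 95% interval -0.29 to 0.21; limma adjusted p = 0.914). Without inhibitor replicate 1 it was 0.069. Dll1 (chromosome 17, 15367354 to 15376872, minus strand), a Delta-like ligand, was the least abundant of the 10. It had 228 and 177 normalised reads with DMSO and 103 and 191 with the inhibitor, with an overlap between the groups. Its lowest library held 108 reads, a counting error of 9.62%, and its 95% interval was wide, from -1.36 to 0.47 around a log2 fold change of -0.44 (limma adjusted p = 0.702). That value was -0.068 without inhibitor replicate 1 and -0.82 without inhibitor replicate 2.

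Rbpj (chromosome 5, 53466152 to 53657362, plus strand), which binds DNA and recruits repressors until Notch joins it, had 586 and 1055 normalised reads with DMSO and 1056 and 1079 with the inhibitor. DMSO replicate 1 stood alone, and the other 3 libraries agreed closely. The DMSO pair differed 1.77-fold, more than the 1.34-fold between the groups. The log2 fold change was 0.43 ± 0.25 (SE; 95% interval -0.12 to 0.97; limma adjusted p = 0.488), and without DMSO replicate 1 it was 0.016. Without DMSO replicate 2, which sets the inhibitor pair against DMSO replicate 1 alone, it was 0.84 (adjusted p = 0.0562). In that library alone 5 of 8 fibroblast markers, 5 of 8 mural markers and 8 of 10 endothelial markers were lowest. The fibroblast markers summed to 890 normalised reads in DMSO replicate 1, to 2229 in DMSO replicate 2 and to 2519 and 2530.3 with the inhibitor, with Lum and Tcf21 at 0 throughout. Their part in the values of Rbpj was not tested.

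The targets did not share a direction. Hes1 (chromosome 16, 30064384 to 30067796, plus strand), a repressor that restrains differentiation and the multiciliated fate, had 4828 and 3003 normalised reads with DMSO and 6010.3 and 3692 with the inhibitor. In each group replicate 1 was the higher, by 1.60-fold with DMSO and 1.62-fold with the inhibitor, and the groups overlapped. Its log2 fold change was 0.31 ± 0.22 (SE; 95% interval -0.18 to 0.79; limma adjusted p = 0.595). The value turned to -0.035 without DMSO replicate 2 and to -0.045 without inhibitor replicate 1, and it was 0.65 without DMSO replicate 1 (adjusted p = 0.0560). Hes1 is also known to respond quickly to serum and other stimuli. A list of 12 immediate early genes, chosen after these values were seen, summed to 121974 and 36546 normalised reads with DMSO and to 153878 and 108946 with the inhibitor. All 12, such as Egr1 with 19994, 3598, 28767 and 21463 in the same order, were lowest in DMSO replicate 2, where Hes1 was lowest too. Their log2 fold changes were all positive, with a median of 0.79, and 0 of the 12 passed in limma. The order of the 4 libraries was the same for their sum and for Hes1. Its part in the values of Hes1 was not tested.

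Hey1 (chromosome 3, 8663359 to 8667256, minus strand), a repressor of the same class that is also strong in vessels, had 1019.5 and 1539 normalised reads with DMSO and 961 and 948 with the inhibitor. The inhibitor pair agreed within 1.01-fold, while the DMSO pair differed 1.50-fold. Its log2 fold change was -0.38 ± 0.21 (SE; 95% interval -0.84 to 0.075; limma adjusted p = 0.459), and -0.092 without DMSO replicate 2. That library held 8487 normalised reads of the 10 endothelial markers, against 2823 in DMSO replicate 1 and 3184 and 3996 with the inhibitor, and 9 of the 10 were highest there. Without DMSO replicate 1, where Hey1 is set against that library alone, the log2 fold change was -0.67 (adjusted p = 0.0551). The part of endothelial RNA in the values of Hey1 was not tested.

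Nrarp (chromosome 2, 25180758 to 25183339, plus strand), a small ankyrin repeat protein that is switched on by Notch and dampens it, had the lowest log2 fold change of the 10. It had 374 and 489 normalised reads with DMSO and 335 and 177 with the inhibitor, with means of 431 ± 80.8 and 256 ± 112 (SD, n = 2 each). The inhibitor values lay below the DMSO values. From the log2 scale, however, the inhibitor pair differed 1.78-fold, more than the 1.67-fold between the groups. The log2 fold change was -0.74 ± 0.35 (SE; 95% interval -1.51 to 0.022; limma adjusted p = 0.375). It was -0.33 without inhibitor replicate 2 and -1.16 without inhibitor replicate 1. An opposite-strand gene, Gm38287, shares 2051 of the 2582 exon bases of Nrarp in GENCODE, and it is not given whether reads were counted by strand, so its reads could not be told from those of Nrarp. Smaller overlaps with opposite-strand genes exist at Notch1 (1068 bases with 0610009E02Rik), Notch3 (488) and Dll1 (867), and with a same-strand gene at Notch2 (541).

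**Figure D2:**
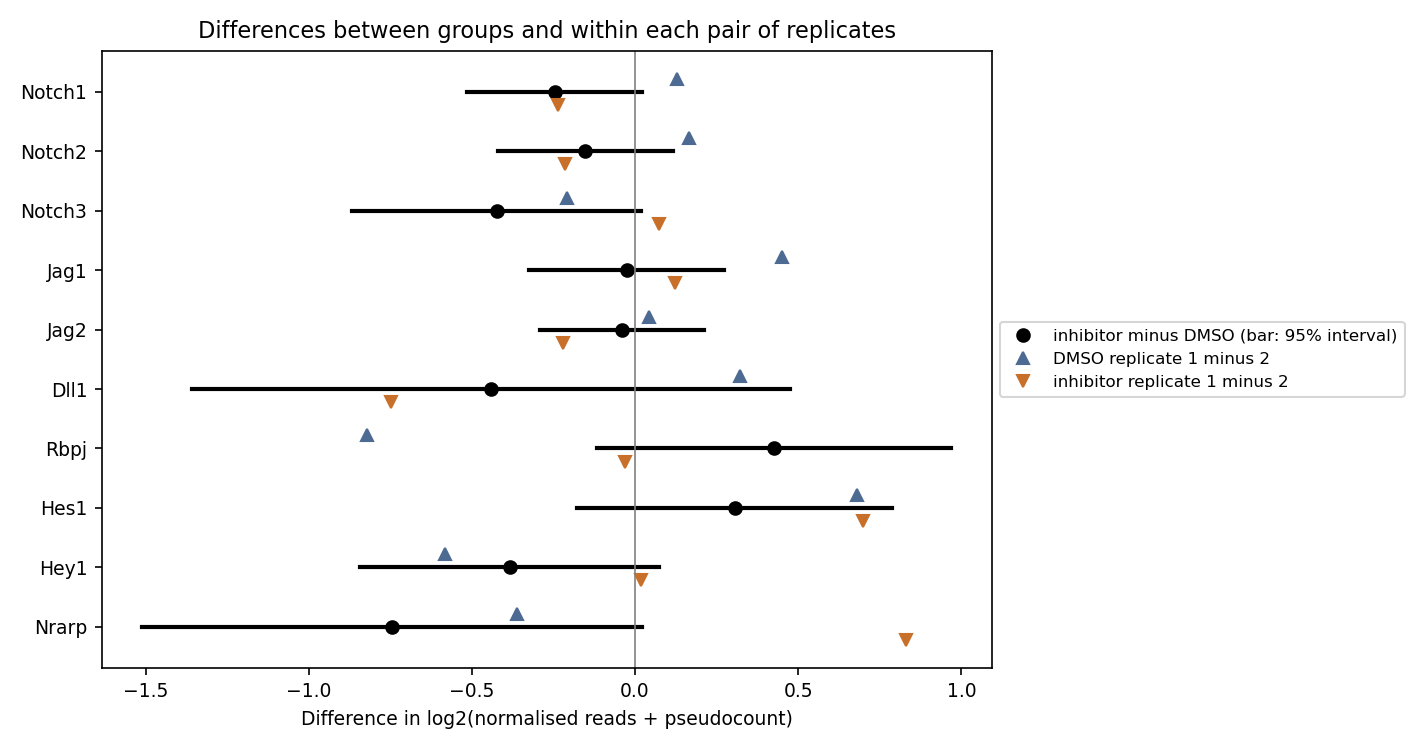
Differences in log2(normalised reads + 25.8) on the x axis for the 10 genes on the y axis, with black circles for inhibitor minus DMSO and bars for its 95% interval from limma, blue triangles for DMSO replicate 1 minus replicate 2 and orange triangles for inhibitor replicate 1 minus replicate 2. Every interval includes 0, and the replicate difference of Rbpj with DMSO (-0.82) and of Nrarp with the inhibitor (0.83) are larger than their differences between groups.

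Differences within pairs of replicates were as large as those between groups in most of the 10 genes. The DMSO pair differed by more than the groups in 6 of 10, against 55.0% of all genes tested, and the inhibitor pair in 6 of 10, against 47.4%. Of the 95% intervals of the log2 fold change, that of Jag2 (-0.29 to 0.21) was the narrowest of the 10 and that of Dll1 (-1.36 to 0.47) the widest. When each library was left out in turn, the count of the 10 that passed stayed at 0, and their unadjusted p values varied with the library. An unadjusted p under 0.05 was found for 4 of the 10 without DMSO replicate 1 (19.4% of all genes), for 3 without DMSO replicate 2 (16.7%), for 1 without inhibitor replicate 1 (7.68%) and for 1 without inhibitor replicate 2 (6.18%).

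The genes of the pathway outside the 10 were taken from a list of 79 in 10 roles, of which 72 passed the filter on low values. None passed in limma, where 14 of the 72 (19.4%, against 14.1% of all genes) had an unadjusted p under 0.05. None passed in edgeR either, where 12 of 73 had one, against 12.2% of all genes. DESeq2 called 2 of the 56 to which it gave an adjusted p, against 5.67% of all genes. These were Mib1 and Cul3, both higher. Of the 72, 37 had a positive and 35 a negative log2 fold change, with a median of 0.014, and the groups did not overlap in 34 (47.2%, against 44.9% of all genes). The genes at 0 in every library were the ligands Dlk1 and Cntn1 and the targets Hes5 and Gata3.

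Mib1, the ubiquitin ligase that makes ligands pull on the receptor, had 4534 and 4303 normalised reads with DMSO and 5864 and 6082 with the inhibitor. The groups were well apart, the log2 fold change was 0.43 ± 0.12 (SE; limma adjusted p = 0.0836; DESeq2 adjusted p = 0.0124), and it lay between 0.40 and 0.47 when each library was left out. Of the 6 ligases of ligands, 4 were positive. Cul3, a scaffold of ubiquitin ligases listed with the negative regulators of the receptor, had 3533 and 3140 with DMSO and 4581 and 4680 with the inhibitor. Its log2 fold change was 0.47 ± 0.12 (SE; limma adjusted p = 0.0809; DESeq2 adjusted p = 0.0190), and without DMSO replicate 1 it passed (0.56, adjusted p = 0.0118). In that fit, which called 5.76% of all genes, 5 of the 72 passed: Cul3, Mib1 (0.47, adjusted p = 0.0246), Adam10, Ncor1 and Notch4. Dtx4, an E3 ligase of the Deltex family named after its values were seen, had 754 and 572 with DMSO and 304 and 357 with the inhibitor (-0.94 ± 0.28, SE; limma adjusted p = 0.123).

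The proteases that free the intracellular part of Notch were split. Ncstn, the gamma-secretase subunit that recognises the substrate, had 3690.2 and 3842 normalised reads with DMSO and 2735 and 2902 with the inhibitor, and a log2 fold change of -0.42 ± 0.13 (SE; limma adjusted p = 0.140). Aph1a, Aph1b and Adam10 were named after their values were seen. On the log2 scale the gamma-secretase subunit Aph1a stood at -0.36 (adjusted p = 0.536), while its paralog Aph1b had 0.34 (adjusted p = 0.352). Adam10, the metalloprotease that cuts ligand-bound Notch, had 1521 and 1063 with DMSO and 1999 and 1789 with the inhibitor, with no overlap (0.56 ± 0.19, SE; limma adjusted p = 0.178). Its log2 fold change was 0.82 without DMSO replicate 1 and 0.31 without DMSO replicate 2. Of the 10 proteases 7 were negative and 5 had an unadjusted p under 0.05, against 14.1% of all genes.

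In the other roles the gene of smallest p was as follows. Pofut1, which adds the fucose that Notch needs, had a log2 fold change of -0.45 ± 0.22 (SE; limma adjusted p = 0.389), with 2 of 5 genes of its role positive. Among coactivators Crebbp, an acetyltransferase, had 0.32 (adjusted p = 0.347), with 5 of 7 positive. Among corepressors Ncor1 had 0.38 (adjusted p = 0.211), with 7 of the 15 genes listed under that role positive. That list holds Sharpin (-0.38), whose place among Notch corepressors was not tested. The value of Ncor1 was 0.56 without DMSO replicate 1 and 0.20 without DMSO replicate 2. The endothelial receptor Notch4 had 116 and 448 normalised reads with DMSO and 70.7 and 106 with the inhibitor, so that DMSO replicate 2 alone was high, as it was for the endothelial markers. Its log2 fold change was -1.20 ± 0.54 (SE; limma adjusted p = 0.340). Leaving out DMSO replicate 1 gave -2.07 (adjusted p = 0.0165), and leaving out DMSO replicate 2 gave -0.33. The ligand Dll3 was low, with 0.975 and 31.7 normalised reads with DMSO and 26.8 and 107 with the inhibitor, and its groups overlapped (adjusted p = 0.534). Hes2 had 154 and 85.2 with DMSO and 40.1 and 17.8 with the inhibitor (-1.40 ± 0.56, SE; limma adjusted p = 0.281), and Sox9, a transcription factor of lung progenitors, had -0.90 (adjusted p = 0.398).

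**Figure D3:**
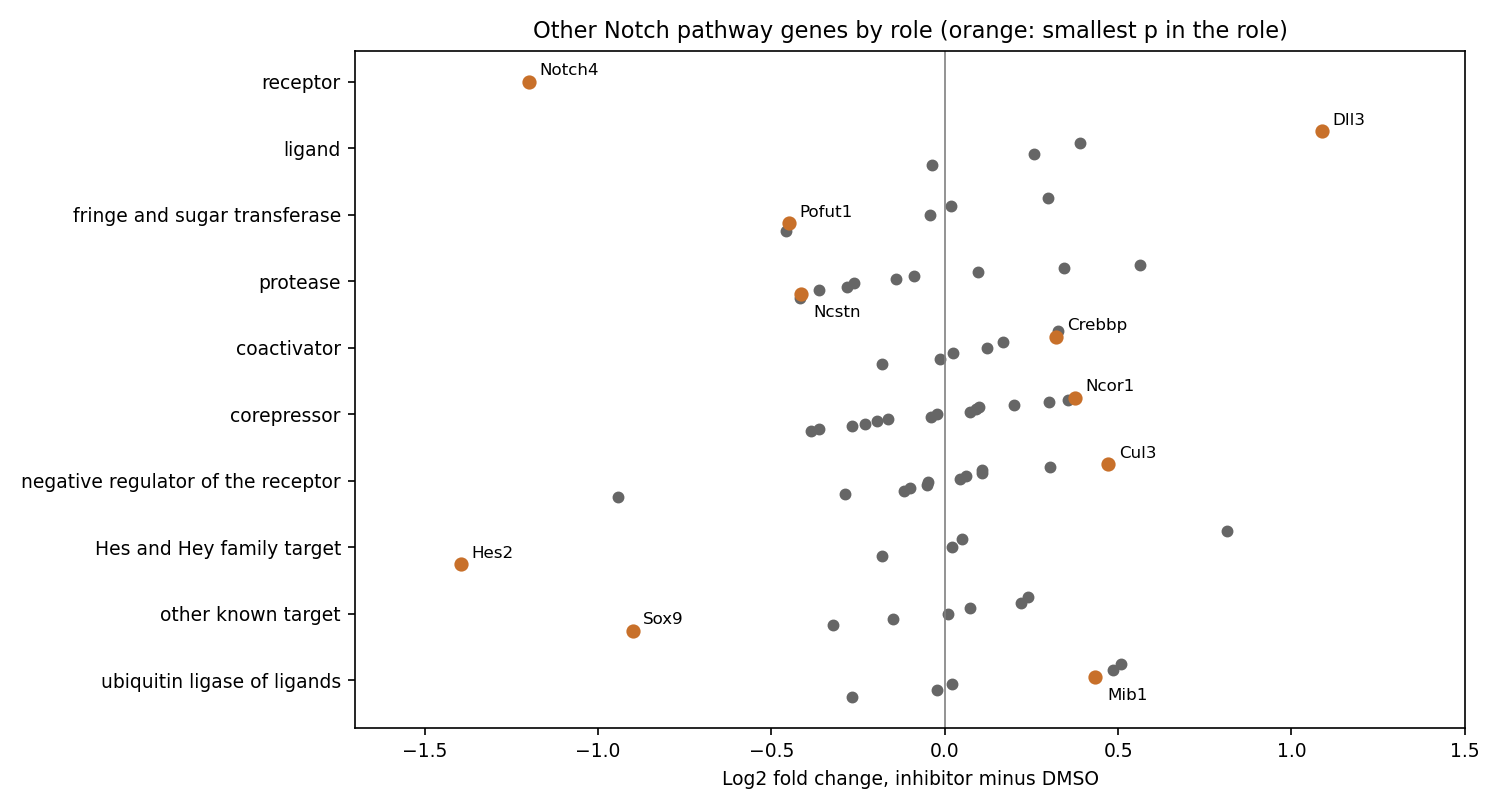
Log2 fold changes (x axis, inhibitor minus DMSO) of the 72 tested Notch pathway genes outside the 10, 1 point a gene, by role (y axis), with the gene of smallest p in each role in orange and named. Points lie on both sides of 0 in every role with more than 1 gene, and none of the 72 passed in limma.

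**Figure D4:**
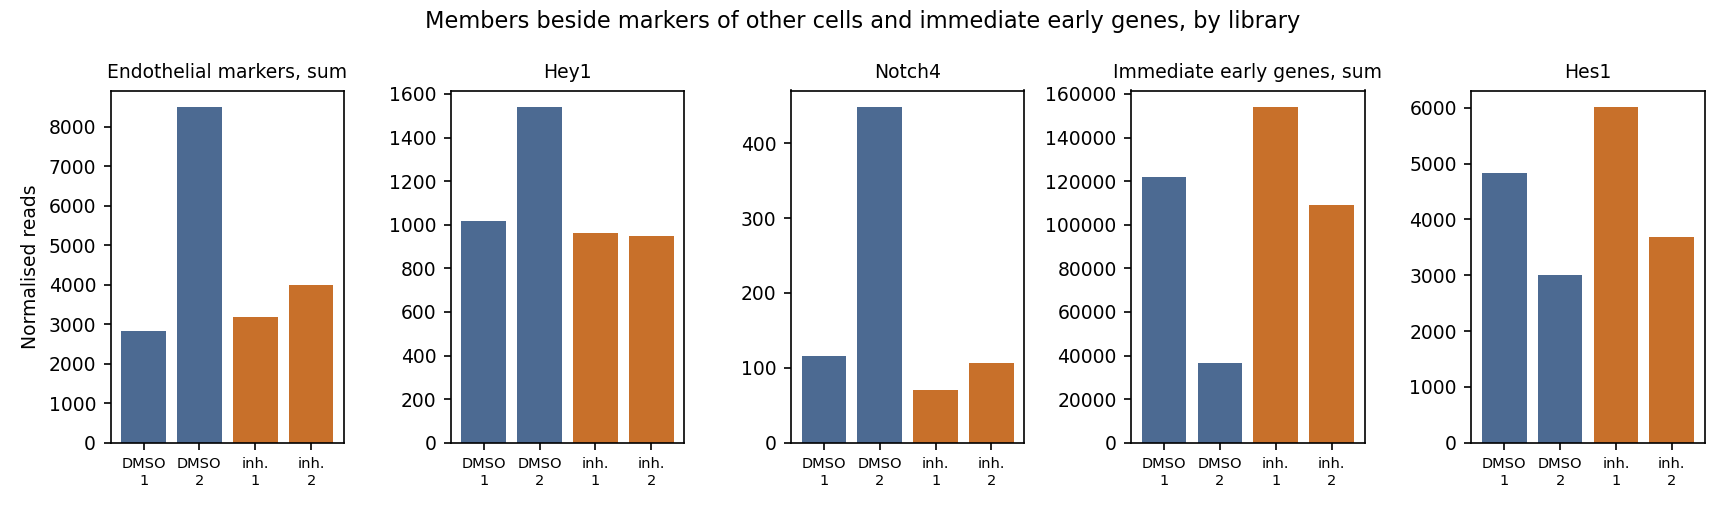
Normalised reads (y axes, linear and from 0) in each of the 4 libraries of the summed endothelial markers, Hey1, Notch4, the summed immediate early genes and Hes1, with DMSO in blue and the SCD1 inhibitor (inh.) in orange. DMSO replicate 2 has the highest bar for the endothelial markers, Hey1 and Notch4 and the lowest for the immediate early genes and Hes1.

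Markers of the cell fates that Notch separates are given for the same libraries. The 9 goblet cell markers summed to 106532 and 80974 normalised reads with DMSO and 19181 and 37199.5 with the inhibitor, and 6 of the 9 fell in limma's test, against 1.79% of all genes called. Of these, Clca1, a secreted regulator of mucus and the most abundant, had 48387 and 35269 with DMSO and 8106 and 15504 with the inhibitor. Fcgbp, a mucus protein and the marker with the smallest p, had 8195 and 8129 with DMSO and 1882 and 2487 with the inhibitor (-1.90 ± 0.14, SE; limma adjusted p = 5.8e-05). Of 9 tested club cell markers 4 fell, such as Scgb3a2, a secretoglobin, with a log2 fold change of -1.15 ± 0.11 (SE; limma adjusted p = 0.00036). Scgb1a1, of the same family and the highest of that list, had 310825 and 241855 with DMSO and 332447 and 163459 with the inhibitor, with overlapping groups (adjusted p = 0.729). The 14 ciliated cell markers summed to within 1.02-fold over the 4 libraries, and 2 of them, Ccdc39 and Rfx3, rose. Over the 14, 7 log2 fold changes were positive and 7 negative, with a median of 0.042. Most of that sum was Sec14l3, with 299679 and 286968 with DMSO and 275476 and 277573 with the inhibitor, so it says little of the other 13. Ccdc39, which helps build the axoneme, had 6580.1 and 4195 with DMSO and 14105 and 14191 with the inhibitor (1.42 ± 0.16, SE; limma adjusted p = 0.0014). These counts varied with the libraries and the test. Without inhibitor replicate 1, limma called 2 goblet, 2 club and 0 ciliated markers, and without inhibitor replicate 2 it called 4, 2 and 0. With edgeR, which called 0.0654% of all genes, the counts were 1, 1 and 0. With DESeq2, which called 5.67%, they were 4, 5 and 3, with no adjusted p for 3 of 9 goblet and 2 of 14 ciliated markers. Limma without its intensity trend called 0 of each list and 0 of all genes. Alveolar type 2 cells lie outside this choice of fate, and 4 of their 8 markers fell too, with 7 of 8 log2 fold changes negative and a median of -0.54. Of these, the surfactant protein gene Sftpc, the most abundant, had 149317 and 191501 with DMSO and 115828 and 100831 with the inhibitor. Lyz2, a lysozyme gene and the one of smallest p, had a value of -0.62 ± 0.12 (SE; limma adjusted p = 0.0205). The count of 4 was 7 without DMSO replicate 1, 3 without DMSO replicate 2, 0 without inhibitor replicate 1, 0 without inhibitor replicate 2, 0 with edgeR and 6 with DESeq2. Basal cell markers, whose cells carry Jag ligands, summed over 7 genes to 5244 and 3898 with DMSO and 923 and 3084 with the inhibitor, and 0 of 5 tested passed in limma, though all 5 log2 fold changes were negative. DESeq2 called 2 basal markers lower of the 3 to which it gave an adjusted p, and limma called 2 lower without DMSO replicate 2 and 1 without inhibitor replicate 2. Of them the keratin Krt15 was the most abundant (-1.50, adjusted p = 0.0921) and the water channel Aqp3 had the smallest p (-1.58, adjusted p = 0.0752). Inhibitor replicate 1, lowest in basal markers, was also the lowest library for Notch1, Notch2, Jag2 and Dll1. It was not the lowest for Jag1 (10242, against 8546 in DMSO replicate 2) or Notch3 (750.1, against 711 in inhibitor replicate 2). Nor was it the lowest for Rbpj, Hes1, Hey1 and Nrarp. The part of basal cells in the values of these genes was not tested. The fate regulators were named for their roles after their values were seen. Foxj1, the regulator of cilia, had 49818 and 61535 with DMSO and 51757 and 54569 with the inhibitor (-0.059, limma adjusted p = 0.880). Spdef, the regulator of goblet cells, had 259 and 145 with DMSO and 44.9 and 75.5 with the inhibitor (-1.38, limma adjusted p = 0.206). Trp63, the regulator of basal cells, had 219 and 166 with DMSO and 90.8 and 362 with the inhibitor (-0.026, limma adjusted p = 0.989).

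The genes whose profile over the 4 libraries was most like that of the 2 members with the smallest p were found by the root mean square difference of centred log2 values. For Nrarp they were Dmtn (0.036), 2410131K14Rik (0.059) and H2-Eb1 (0.063), and 14 of 13809 genes lay within 0.1. For Notch3 they were Ndufa2 (0.015), Ptgfrn (0.017) and Gstm2 (0.020), and 435 genes lay within 0.1. With 4 libraries such likeness describes these samples and no more.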

How the data were processed

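The deposited table holds signal values for each gene symbol in 4 libraries, which are read counts divided by a size factor of the library. This was read from the values, which are whole multiples of the smallest value in each library (100% within 0.01). For DMSO replicate 2 that step (0.991) is close to 1, so its recovered reads rest on the values and on the size factor. HOMER, DESeq2 and the build mm10 are named in the submitters' processing notes. The aligner and the strand of counting were not given in the sources used here. Genes with a mean of at least 25.8 (1 CPM) were kept and tested on log2(value + 25.8) in R 4.3.3 by limma 3.58.1, using its intensity trend, the group as the term and no block. The same reads were tested with edgeR 4.0.16 and DESeq2 1.42.0, and the scripts were tested on simulated data. At the floor the counting error is 19.7%, and PCR copies are not independent molecules. Exon lengths and coordinates came from GENCODE M21 (GRCm38), promoters from RefSeq. The members and lists were chosen with earlier results of these data known. Named were the 10 members, the gene of smallest p in each pathway role, the 3 genes most like the 2 members of smallest p, and others where stated. Of the airway marker lists the most abundant gene and that of smallest p were named, and other lists are given by sums. Alternatives were the replicate block, other pseudocounts, floors and scalings, no trend, and each library left out.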

Additional observations from a re-analysis of the deposited data

How the results depend on the processing

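The count of the 10 members called was 0 in each direction under all 14 alternatives. The median of their log2 fold changes lay between -0.29 and -0.077 when each library was left out. Leaving out a library gave log2 fold changes of -0.25 to 0.20 for Jag1, -0.15 to 0.069 for Jag2 and -0.045 to 0.65 for Hes1, which are the genes of the 20 compared whose sign turned, and no other setting turned a sign. Other pathway genes called numbered 0 to 4 higher and 0 to 1 lower over the libraries left out, and 2 higher with DESeq2. Over all genes, 188 were called higher and 59 lower. These counts were 51 and 13 without the filter on low values, 0 and 0 without the intensity trend (1423 with an unadjusted p under 0.05), 7 and 3 with edgeR and 331 and 146 with DESeq2. They ran from 0 to 616 and from 5 to 179 over the libraries left out, with 616 and 179 without DMSO replicate 1, 0 and 5 without inhibitor replicate 1 and 3 and 12 without inhibitor replicate 2. With the replicate number as a block, 469 were called higher and 205 lower, with 3 pathway genes higher (Adam10, Cul3 and Mib1) and 1 lower (Dtx4), and 4 of the 10 members had an unadjusted p under 0.05, against 16.5% of all genes. The block called 7 goblet, 4 club, 6 alveolar type 2 and 3 basal markers lower and 3 ciliated markers higher. The labels do not say that a number marks a shared batch, and the replicate differences of the groups correlated over genes at 0.073. The cause of these changes in count was not tested. A fit without 1 library assumes that the lone sample varies like the other group. Depth limits Dll1 and Nrarp most, with 108 and 169 reads in their lowest libraries.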

Other observations

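Id1 and Id3, inhibitors of bHLH factors that many signals switch on, were listed among the other targets. Id3 had 751 and 471 normalised reads with DMSO and 904 and 394 with the inhibitor, and Id1 had 1692 and 1129 with DMSO and 2145 and 1249 with the inhibitor, so that replicate 1 was the higher in each group, as for Hes1 and for Id2 (1815 and 1334 with DMSO, 1763 and 1522 with the inhibitor). Neither Id3 nor Id1 passed (limma adjusted p = 0.993 and 0.723). Hes6, a member of the Hes family that counters Hes1, had 2826 and 3710.4 with DMSO and 2946 and 2762 with the inhibitor, with overlapping groups (log2 fold change -0.18, limma adjusted p = 0.644). Lfng, which adds a sugar to Notch and tunes its choice of ligand, had 2971 and 2994 with DMSO and 2602 and 3502 with the inhibitor, the inhibitor values lying on both sides of the DMSO values (0.017, limma adjusted p = 0.974). These genes were named after their values were seen.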
